A study of Mus musculus with 10 samples.

Results

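Nfkb1, Nfkb2, Rel, Rela and Relb, the 5 genes of the NF-kB subunits, were followed with Nfkbia, Nfkbib and Nfkbie, which encode the IkB inhibitors, and Nfkbiz and Bcl3, which encode atypical IkB proteins, in splenic monocytes of leukaemic and control mice. The members were chosen by name, as every probe that the array platform's annotation assigns to these 10 genes, out of 21946 named genes on the array. They had 12 probes, 2 each for Nfkbia and Nfkbie and 1 for each other gene, and all 12 were detected on all 10 arrays. The platform lists the Nfkb1 probe under a cDNA clone and the other probes under RefSeq transcripts.

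The TCL1-AT group holds 5 samples of monocytes from C57BL/6 mice aged 3 months, 6 weeks after they received murine leukaemia (CLL) cells of Eµ-TCL1 mice. In that strain a TCL1 transgene is driven in B cells by immunoglobulin regulatory sequences, so it is carried by the transplanted cells. The WT group holds 5 samples, labelled as pools, from C57BL/6 mice of the same age with no intervention. Cells of both groups were sorted from spleen as lineage negative, CD11b positive, F4/80 intermediate, CD11c low to intermediate and low for MHC class II, and total RNA was put on Illumina arrays. The labels do not say how many mice a WT pool holds or whether a TCL1-AT sample is 1 mouse, so the p-values measure the spread between these samples, which may be technical. Between 43.0% and 45.2% of probes were detected on TCL1-AT arrays and between 42.9% and 45.3% on WT arrays. Arrays that stood apart were TCL1-AT 4, which was low for several members, and WT 1, whose raw signal level was that of the TCL1-AT arrays.

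NF-kB proteins act as dimers. The precursors made by Nfkb1 and Nfkb2 are processed to the DNA-binding subunits p50 and p52, while c-Rel, RelA and RelB carry transactivation domains. In resting cells the inhibitors IkB alpha (Nfkbia), beta (Nfkbib) and epsilon (Nfkbie) hold dimers in the cytoplasm until IkB kinase marks them for degradation, the canonical route, and the kinase NIK drives processing of p100 to p52 and release of RelB, the non-canonical route. IkB zeta (Nfkbiz) and Bcl3 act in the nucleus on p50 or p52 dimers. Several of these genes are themselves known NF-kB targets, which forms feedback loops in monocytes and macrophages.

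Promoter windows were examined because NF-kB dimers can act on the family's own genes. Windows of 300 bases, from 250 before to 50 after an annotated start, were taken from RefSeq (GRCm38.p6) and matched by symbol for 7 of the 10 genes, all but Nfkb1, Relb and Nfkbiz. They were searched on both strands for the 10-base kB consensus, which allows alternative bases at some positions. Of 9 windows, 7 held a match, in Nfkb2 (3 windows), Rel, Nfkbia, Nfkbie and Bcl3, and the windows of Rela and Nfkbib held none. Nfkb2 windows 2 and 3 overlap and share 1 match, GGGACTTTCC, which is the only match of window 3, so the windows are not independent. Among all 32851 windows of the RefSeq table, 4.51% held a match. A match is a description of these letters and does not show binding.

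The windows below, written 5′ to 3′ on the gene's strand with kB matches in capitals, show a gene with matches close to its first start (Nfkb2), a classical inhibitor (Nfkbia), the gene with the largest log2 difference over all 10 arrays (Bcl3), a gene with matches that was not called (Rel) and a gene without a match that rose least among the called members (Rela). They lie at chr19:46304487-46304786 (plus strand) for Nfkb2, chr12:55492598-55492897 (minus strand) for Nfkbia, chr7:19822706-19823005 (minus strand) for Bcl3, chr11:23770920-23771219 (minus strand) for Rel and chr19:5637291-5637590 (plus strand) for Rela.
Nfkb2: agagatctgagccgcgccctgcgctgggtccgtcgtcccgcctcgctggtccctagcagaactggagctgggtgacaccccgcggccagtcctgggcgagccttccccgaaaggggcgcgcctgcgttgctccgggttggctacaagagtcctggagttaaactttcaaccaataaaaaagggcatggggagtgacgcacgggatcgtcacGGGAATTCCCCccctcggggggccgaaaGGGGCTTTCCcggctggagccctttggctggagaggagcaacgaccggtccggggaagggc
Nfkbia: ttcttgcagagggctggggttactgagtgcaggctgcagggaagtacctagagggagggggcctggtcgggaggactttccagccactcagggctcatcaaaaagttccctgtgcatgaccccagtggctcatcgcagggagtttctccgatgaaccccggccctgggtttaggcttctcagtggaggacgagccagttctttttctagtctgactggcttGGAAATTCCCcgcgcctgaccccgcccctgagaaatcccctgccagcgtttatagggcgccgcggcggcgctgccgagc
Bcl3: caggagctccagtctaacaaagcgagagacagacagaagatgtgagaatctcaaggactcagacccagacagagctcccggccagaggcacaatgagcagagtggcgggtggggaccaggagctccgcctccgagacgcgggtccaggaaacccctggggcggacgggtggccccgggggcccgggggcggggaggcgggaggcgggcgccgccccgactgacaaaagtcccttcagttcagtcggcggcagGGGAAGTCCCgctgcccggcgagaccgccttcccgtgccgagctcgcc
Rel: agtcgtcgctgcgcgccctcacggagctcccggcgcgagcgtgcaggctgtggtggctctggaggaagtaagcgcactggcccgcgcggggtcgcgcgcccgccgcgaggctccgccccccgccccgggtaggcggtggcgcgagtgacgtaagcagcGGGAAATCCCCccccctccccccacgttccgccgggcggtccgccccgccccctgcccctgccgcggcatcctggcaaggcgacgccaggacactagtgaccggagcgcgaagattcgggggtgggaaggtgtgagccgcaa
Rela: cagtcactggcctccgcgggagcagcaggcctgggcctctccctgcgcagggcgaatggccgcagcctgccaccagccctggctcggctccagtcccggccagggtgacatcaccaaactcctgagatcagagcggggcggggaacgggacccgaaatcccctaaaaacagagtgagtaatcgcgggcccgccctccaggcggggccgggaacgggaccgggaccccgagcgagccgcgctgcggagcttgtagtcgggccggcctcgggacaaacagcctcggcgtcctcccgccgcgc

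In the first Nfkb2 window a match began 39 bases before the start and read on both strands, GGGAATTCCC. A second match, shifted by 1 base, overlapped it, and a further match, GGGGCTTTCC, began 11 bases before the start. In Nfkbia the match lay on the opposite strand, where it reads GGGAATTTCC, and covered 29 to 20 bases before the start. Rel had a match that read on both strands from 92 bases before the start, GGGAAATCCC, with a second one shifted by 1 base. In Bcl3 the match lay on the opposite strand, beginning 2 bases after the start, and in Nfkbie it began 106 bases before the start on the gene's strand.

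**Figure D1:**
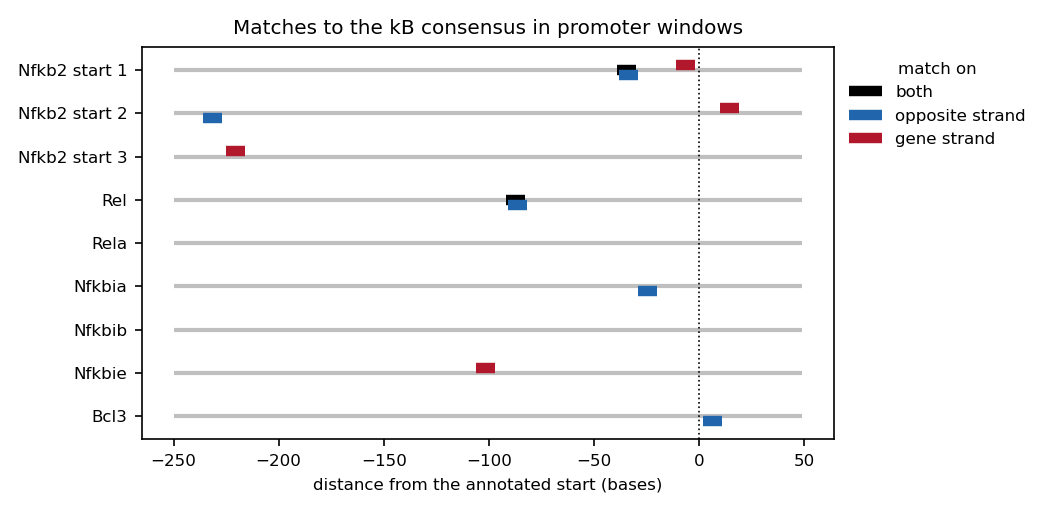
Position of kB consensus matches in the 9 promoter windows of 7 members. The x axis gives the distance from the annotated start in bases, grey lines are the windows, and bars are 10-base matches, coloured by the strand on which they read; 7 windows hold at least 1 match and those of Rela and Nfkbib hold none.

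Most of the family was higher in monocytes of leukaemic mice. Of the 10 genes, 9 were called higher and 0 lower, against 12.7% called higher and 16.5% called lower among 11506 tested named genes. By probe, 11 of 12 were called higher and 0 lower, against 12.1% higher and 14.8% lower among 20241 tested probes. A call is a Benjamini-Hochberg adjusted p under 0.05 over all tested probes in limma's moderated test of the authors' normalized log2 signals, and a gene is represented by its brightest probe. The median log2 difference, TCL1-AT minus WT, was 1.01 over the 10 genes and 0.01 over all tested named genes. Of the members, 5 were called with a fold of at least 2 (Nfkb2, Relb, Nfkbia, Nfkbie and Bcl3), against 2.04% of tested named genes. In 7 members no TCL1-AT value overlapped a WT value with TCL1-AT higher, against 10.2% of tested named genes. Without TCL1-AT 4, 9 of the 10 genes were called higher. In bulk RNA, fewer cells of a type and less RNA per cell cannot be told apart.

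**Figure D2:**
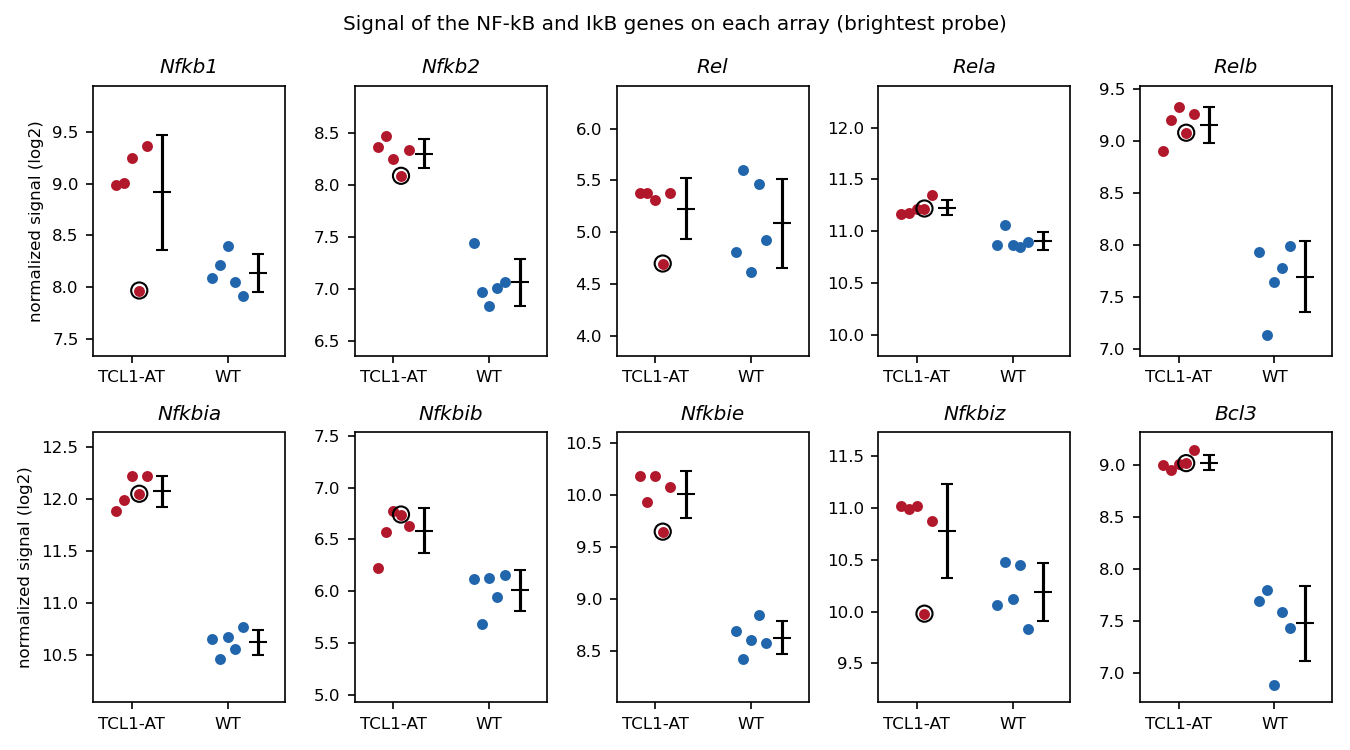
Normalized log2 signal of the brightest probe of each member on the 5 TCL1-AT arrays (red, left) and the 5 WT arrays (blue, right), with mean and SD beside the points; TCL1-AT 4 is ringed, and each panel spans the same number of log2 units around its own centre. Nfkb2, Rela, Relb, Nfkbia, Nfkbib, Nfkbie and Bcl3 show no overlap between the groups.

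Raw signal levels differed between the groups before normalization. The median raw signal was 90.3 to 93.4 intensity units on TCL1-AT arrays and 80.4 to 92.1 on WT arrays, where WT 1 had the 92.1 and the other WT arrays lay lower. With arrays of higher and lower median raw signal as a block, all 5 TCL1-AT arrays shared a block with WT 1, and the other WT arrays formed the other block. The block value is therefore the TCL1-AT mean minus WT 1 alone, tested on the assumption that this array varies like the others, with a larger SE than over all 10 arrays. A call lost with the block is thus not a smaller difference unless the values below show one. In that fit 5 members were called (Nfkb2, Relb, Nfkbia, Nfkbie and Bcl3), against 3.32% of tested named genes called higher, and Nfkb1, Rela, Nfkbib and Nfkbiz were not. The same 5 members were called with the median raw signal as a covariate. Without WT 1, 8 of the 10 genes were called higher, Nfkbiz being lost, and these 5 gave log2 differences of 1.33 for Nfkb2, 1.52 for Relb, 1.46 for Nfkbia, 1.40 for Nfkbie and 1.6 for Bcl3. On WT 1 itself the signal of these 5 genes lay below every TCL1-AT value, by at least 0.65 for Nfkb2, 0.97 for Relb, 1.23 for Nfkbia, 0.96 for Nfkbie and 1.26 for Bcl3 on the log2 scale.

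**Figure D3:**
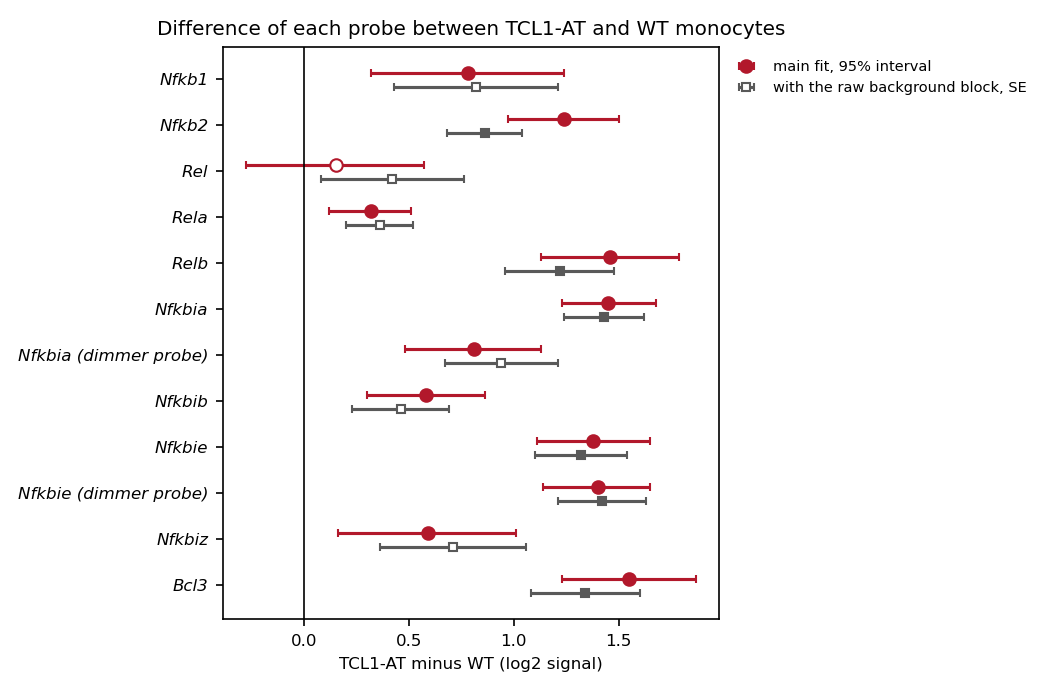
Log2 difference, TCL1-AT minus WT, of each member probe in the fit of 5 against 5 arrays (red circles, bars are 95% confidence intervals) and with the raw background block (grey squares, bars are SE). Filled symbols passed an adjusted p of 0.05; 11 circles and 6 squares are filled, and no difference is below 0.

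Among the subunits, Relb and Nfkb2, the genes of the non-canonical pair, had the largest log2 differences. Nfkb2, the p100 and p52 gene, had log2 signals of 8.37, 8.47, 8.25, 8.09 and 8.34 on the TCL1-AT arrays, against 7.44, 6.97, 6.84, 7.01 and 7.07 on the WT arrays. The groups did not overlap, and WT 1 was the highest of the control arrays. The rise of Nfkb2 was 2.36-fold (1.24 ± 0.12 log2 units, SE, adjusted p = 7.69e-06), 1.29 without TCL1-AT 4 and 0.86 (adjusted p = 0.0123) with the raw background block. Relb, whose product pairs with p52, had 8.90, 9.20, 9.33, 9.08 and 9.26 in TCL1-AT, against 7.93, 7.13, 7.64, 7.78 and 7.99 in WT. Every TCL1-AT array lay above every WT array, and WT 2 was the lowest of all. Its rise was 2.75-fold (1.46 ± 0.15 log2 units, SE, adjusted p = 1.25e-05), and 1.22 (adjusted p = 0.0152) with the block.

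Of the genes of the canonical subunits, Rela and Nfkb1 rose. Rela, which encodes p65, had log2 signals of 11.17, 11.18, 11.22, 11.22 and 11.35 in TCL1-AT, against 10.87, 11.06, 10.87, 10.85 and 10.90 in WT. The groups lay apart by only 0.11, between TCL1-AT 1 and WT 2. Rela was 1.25-fold higher (log2 difference 0.32, SE 0.09, adjusted p = 0.0186). Its call was lost with the raw background block (0.36, adjusted p = 0.235), with median scaling (0.28, adjusted p = 0.056) and without TCL1-AT 5 (0.29, adjusted p = 0.0551).

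Nfkb1, the p105 and p50 gene, split the TCL1-AT arrays. Its log2 signals were 8.99, 9.01, 9.25, 7.97 and 9.36 in TCL1-AT, against 8.09, 8.22, 8.40, 8.05 and 7.92 in WT. TCL1-AT 4 lay within the WT range and the other TCL1-AT arrays above all WT arrays. Nfkb1 was 1.72-fold higher (log2 difference 0.78, SE 0.21, adjusted p = 0.0156), and without TCL1-AT 4 the difference was 1.01 (SE 0.12, adjusted p = 5.32e-05). The call was lost with the raw background block (0.82, SE 0.39, adjusted p = 0.258).

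Rel, which encodes c-Rel, was the member with no call. It was dim, with log2 signals of 5.38, 5.38, 5.31, 4.70 and 5.38 in TCL1-AT, against 4.81, 5.60, 4.62, 5.47 and 4.93 in WT. The groups overlapped throughout, WT 2 and WT 4 lay above every TCL1-AT array, and TCL1-AT 4 lay below the other TCL1-AT arrays. The log2 difference was 0.15 (95% confidence interval -0.28 to 0.57, adjusted p = 0.624), and 0.28 (adjusted p = 0.284) without TCL1-AT 4. A dim probe has its difference compressed by the offset added before the log, so the interval applies to this scale.

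All 3 inhibitor genes rose, and Nfkbia had the widest gap between the groups among these 3. Its brighter probe had log2 signals of 11.88, 11.99, 12.22, 12.05 and 12.22 in TCL1-AT, against 10.65, 10.46, 10.67, 10.55 and 10.77 in WT. The SD was 0.15 in TCL1-AT and 0.12 in WT (n = 5 each), against a gap of 1.10 between the lowest TCL1-AT and the highest WT value. Nfkbia was 2.74-fold higher (log2 difference 1.45, SE 0.10, adjusted p = 4.06e-07), and the raw background block gave 1.43 (adjusted p = 0.000821). Its dimmer probe gave a smaller difference, 0.81 (SE 0.15, adjusted p = 0.00142), with 7.75 to 8.09 in TCL1-AT and 6.69 to 7.52 in WT. The call of the dimmer probe was lost with the block (0.94, adjusted p = 0.0576).

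Nfkbie rose on both of its probes. The brighter probe had log2 signals of 10.19, 9.94, 10.19, 9.65 and 10.08 in TCL1-AT, against 8.69, 8.42, 8.61, 8.85 and 8.58 in WT. The groups did not overlap, with TCL1-AT 4 the lowest of the leukaemic arrays. This probe rose 2.61-fold (1.38 ± 0.13 log2 units, SE, adjusted p = 3.2e-06), 1.47 without TCL1-AT 4 and 1.32 (adjusted p = 0.00398) with the block. The dimmer probe rose 2.63-fold (1.40 ± 0.12 log2 units, SE, adjusted p = 1.98e-06).

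Nfkbib, the IkB beta gene, had the smallest log2 difference of the inhibitors. It had log2 signals of 6.22, 6.57, 6.77, 6.74 and 6.63 in TCL1-AT, against 6.12, 5.69, 6.13, 5.95 and 6.16 in WT. The groups were separated by 0.05, between TCL1-AT 1 and WT 5. Nfkbib was 1.49-fold higher (log2 difference 0.58, SE 0.13, adjusted p = 0.00513), a call lost with the block (0.46, adjusted p = 0.289).

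Both atypical IkB genes were called higher. Bcl3, a nuclear co-regulator of p50 and p52, had log2 signals of 9.00, 8.95, 9.01, 9.02 and 9.15 in TCL1-AT, against 7.69, 7.80, 6.88, 7.59 and 7.43 in WT. The TCL1-AT arrays lay within a narrow band (SD 0.07) and all above the WT arrays (SD 0.36), of which WT 3 was the lowest. Bcl3 rose 2.93-fold (log2 difference 1.55, SE 0.15, adjusted p = 6.05e-06), and 1.34 (adjusted p = 0.0086) with the block. This was the largest difference of the members over all 10 arrays, but Nfkbia was above it with the block, with the covariate (1.51 for Nfkbia and 1.25 for Bcl3), without background correction (1.41 and 1.25) and without WT 3 (1.46 and 1.40). Nfkbiz, which encodes the inducible IkB zeta, had 11.02, 10.99, 11.02, 9.98 and 10.87 in TCL1-AT, against 10.06, 10.48, 10.12, 10.45 and 9.83 in WT. TCL1-AT 4 lay among the WT arrays and the other TCL1-AT arrays above them.

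Nfkbiz was called at 1.5-fold (log2 difference 0.59, SE 0.20, adjusted p = 0.0414), the weakest call among the members. Leaving out TCL1-AT 4 gave 0.79 (adjusted p = 0.000826). The call was lost when TCL1-AT 1, 2, 3 or 5 or WT 1, 3 or 5 was left out (0.50 to 0.57, adjusted p = 0.0729 to 0.0948), with median scaling (0.54, adjusted p = 0.0626) and with the block (0.71, adjusted p = 0.289).

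TCL1-AT 4 was the array on which members were most often lowest within the leukaemic group. It held the lowest TCL1-AT value of Nfkb1, Nfkb2, Rel, Nfkbie and Nfkbiz, and 9 of the 10 genes were below their group mean there, by 0.28 on average over the 10 genes on the log2 scale. TCL1-AT 1 held the lowest value of the other inhibitors, Nfkbia and Nfkbib, and of Rela and Relb. TCL1-AT 5 lay at or above the group mean for all 10 genes. Among the control arrays, WT 2 held the lowest value of 4 members (Relb, Nfkbia, Nfkbib and Nfkbie) and the highest of 4 (Rel, Rela, Nfkbiz and Bcl3), and WT 3 lay below the group mean for 7 of 10. Mean deviations of the control arrays were -0.10 to 0.07. TCL1-AT 4 also stood apart outside the members, in normalized linear signals summed over gene lists described below. Its sums were the lowest of TCL1-AT for the neutrophil markers (18800) and the NF-kB targets (19100), and the highest for the adaptors (13100). Its share of detected probes, 43.0%, was the lowest of TCL1-AT.

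Whether members rose by equal amounts was tested for 3 pairs. Ratios of 2 members on the same array were compared between the groups with exact permutation tests, 2-sided, over 3 ratios, whose smallest possible p with 5 arrays against 5 is 0.00794. On its brighter probe Nfkbia rose more than Rela, the gene of the main subunit that IkB alpha retains, by 1.13 on the log2 scale (2.20-fold). Set to the WT mean, this ratio was 1.00, 1.10, 1.29, 1.13 and 1.16 on TCL1-AT arrays, against 0.07, -0.31, 0.09, -0.01 and 0.16 on WT arrays, without overlap (exact permutation p = 0.00794, adjusted p = 0.0119 over the 3 ratios). The dimmer Nfkbia probe, with a log2 difference of 0.81 against 0.32 for Rela, was not tested in this way.

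Relb also rose more than Rela, by 1.14 (2.21-fold). The ratio was 0.95, 1.24, 1.32, 1.08 and 1.13 in TCL1-AT, against 0.28, -0.71, -0.02, 0.15 and 0.30 in WT (exact permutation p = 0.00794, adjusted p = 0.0119), and the groups did not overlap. For Nfkb2 against Nfkb1 the ratio was 0.45, 0.53, 0.08, 1.19 and 0.05 in TCL1-AT, against 0.42, -0.18, -0.49, 0.03 and 0.22 in WT. These overlapped, with TCL1-AT 4 the highest, and the difference of 0.46 did not pass (exact permutation p = 0.119, adjusted p = 0.119). Without TCL1-AT 4 it was 0.28 (exact permutation adjusted p = 0.238). An unequal change within an array does not show that the smaller of the changes is 0.

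**Figure D4:**
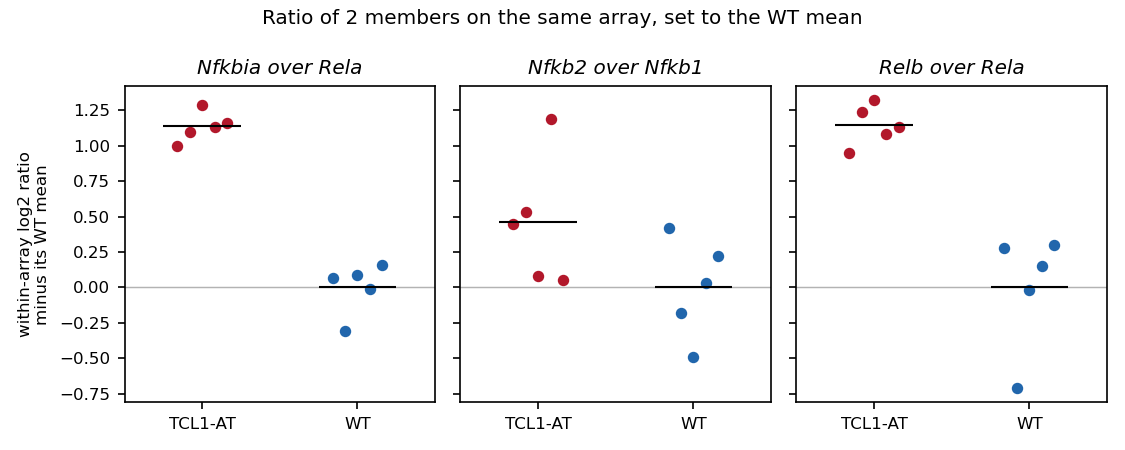
Within-array log2 ratio of 2 members (brightest probe of each) minus its mean over the WT arrays, on the TCL1-AT arrays (red, left) and the WT arrays (blue, right), with lines at the group means. Nfkbia over Rela and Relb over Rela lie at 0.95 or above on every TCL1-AT array and at 0.30 or below on every WT array, while Nfkb2 over Nfkb1 overlaps.

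Of the other IkB-like genes, Nfkbid, which encodes the nuclear IkB protein IkBNS, rose by 0.95 (SE 0.13, adjusted p = 0.000131). Nfkbil1 gave -0.14 (adjusted p = 0.462) and was not called. Upstream, most kinase genes were not called. Of 10 tested genes of IkB kinases, NIK and their activators, 2 rose and 1 fell, at a median log2 difference of 0.12. The shares among all tested named genes were 12.7% higher and 16.5% lower. Ikbke, an IKK-related kinase, rose by 1.22 (SE 0.14, adjusted p = 3.54e-05), Map3k8, a kinase held by p105, by 0.55 (adjusted p = 0.0043, 0.60 and 0.13 with the block), and Tab2, an adaptor of the kinase TAK1, fell by 0.32 (adjusted p = 0.0424, -0.30 and 0.42 with the block). Ikbkb, the catalytic subunit of the canonical kinase, gave -0.04 (adjusted p = 0.803), and Map3k14, which encodes NIK, 0.17 (adjusted p = 0.228).

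Of 13 adaptor genes tested, 4 were called higher, 3 lower and 6 neither (median 0.20), beside 12.7% higher and 16.5% lower among all tested named genes. With the block, Irak3 was the only one of the 7 called genes to pass, and Myd88, the shared Toll-like receptor adaptor, gave 0.43 (adjusted p = 0.14), against 0.44 (adjusted p = 0.00263) over all arrays. Another probe of Myd88 gave 0.05 over all arrays. Irak3, an inhibitory kinase of Toll-like receptor signalling, rose by 0.91 (adjusted p = 1.12e-05). Traf2, an adaptor of TNF receptors, rose by 1.17 (adjusted p = 0.000136) and Birc2, a ubiquitin ligase that restrains NIK, by 0.79 (adjusted p = 0.000415), calls that were lost with the block (0.94 and 0.75, adjusted p = 0.0704 and 0.0713). Other probes of Birc2 gave 0.28 and 0.93. Bcl10, Ticam1 and Traf5 fell by 0.47, 0.70 and 0.47 (adjusted p = 0.00254, 0.00625 and 0.0176). With the block they gave -0.36, -0.86 and -0.35 (adjusted p = 0.242, 0.104 and 0.442), and another probe of Bcl10 gave 0.25.

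Among deubiquitinase and feedback genes, 3 of 6 tested rose and 0 fell (median 0.37). For these and the receptor genes below, the shares among all tested named genes were 12.7% higher and 16.5% lower. Tnip1, a partner of A20, rose by 1.22 (adjusted p = 2.27e-06). Tnfaip3, which encodes A20, rose by 0.80 (adjusted p = 0.00545) and Tnip2 by 0.48 (adjusted p = 0.0145), both lost with the block (1.05 and 0.57, adjusted p = 0.0757 and 0.186), and another probe of Tnip2 gave -0.07. Of 9 receptor genes, 2 rose and 3 fell (median -0.09). Cd40, a receptor that signals by both routes, rose 2.45-fold (adjusted p = 9.9e-07) and Tlr2, a receptor for bacterial lipoproteins, by 0.56 (adjusted p = 0.000761, and 0.52 with adjusted p = 0.102 with the block). Tnfrsf1a, the main TNF receptor gene, fell by 0.72 (adjusted p = 0.00354, and -0.36 with adjusted p = 0.462 with the block), Tlr9, a DNA sensor, by 0.54 (adjusted p = 0.000919) and Tlr4, the lipopolysaccharide receptor, by 0.43 (adjusted p = 0.0114, and -0.25 with adjusted p = 0.515 with the block). Another probe of Tlr4 gave 0.13.

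Of 22 NF-kB target genes outside the family, 15 were tested, of which 11 rose and 0 fell, at a median log2 difference of 1.17. Among all tested named genes 12.7% were called higher and 16.5% lower. The list was chosen with earlier results of these data known, so its count is not independent of them. Ccl4 and Tnfaip2 had the smallest rises of the 11 (0.59 each), and gave 0.36 and 0.28 with the block. The other risen genes gave 1.06 or more with it. Of the risen genes, 1, Ier3, is also among the immediate early genes below. Traf1, a TNF receptor adaptor, rose by 3.31 (SE 0.15, adjusted p = 5.17e-09), Sod2, a mitochondrial superoxide dismutase, by 1.29 (adjusted p = 2.91e-07) and Il1b, an inflammatory cytokine, by 2.12 (adjusted p = 8.66e-07). Il12b, Cxcl1, Ptgs2 and Cflar were not detected on any array, and Il6 and Cxcl2 on 1 TCL1-AT array each and on no WT array. Of 3 tested genes that mouse macrophages are reported to need IkB zeta for, only Edn1 rose, by 1.53 (adjusted p = 3.94e-05). Edn1 was detected on 5 TCL1-AT arrays and 3 WT arrays, and was dim in WT, at log2 signals of 4.21 to 4.77. Lcn2 and Ebi3 gave -0.24 and -0.26 (adjusted p = 0.448 and 0.121). Of 3 tested targets of the non-canonical route, 0 rose and 1 fell, Tnfsf13b, which encodes BAFF, by 1.10 (adjusted p = 9.79e-06). Cxcl12 and Ccl19, which are known mainly from stromal cells, gave 0.14 and 0.17 (adjusted p = 0.52 and 0.427).

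**Figure D5:**
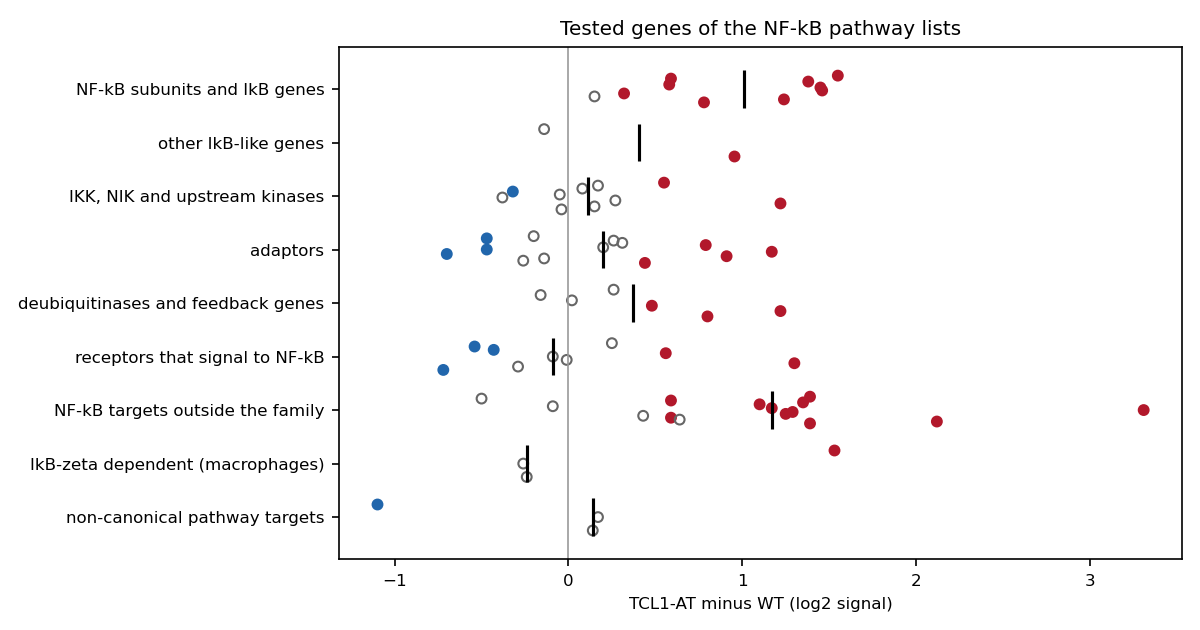
Log2 difference, TCL1-AT minus WT, of each tested gene in the member set and in the pathway lists, with called genes filled (red higher, blue lower), other genes open and the median of each list as a black line. The members' median is 1.01 and that of the NF-kB targets 1.17, while the kinases, adaptors and receptors lie at 0.12, 0.20 and -0.09. The lists were chosen with earlier results of these data known.

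By the root mean square difference of their centred log2 values over the 10 arrays, the named genes whose pattern was most like that of Bcl3 were Zbtb46 (0.206), Insl3 (0.210) and Il21r (0.213). Their log2 differences were 1.57, 1.17 and 1.41. Zbtb46, which is also in the dendritic cell marker list, was detected on all TCL1-AT arrays and on 1 WT array.

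The sorted cells had monocyte transcripts on all arrays, and several markers of other cells differed between the groups. Summed signals below are normalized linear signals over a marker list after the offset was taken off. Of 10 monocyte markers, 9 were on the array, summing to 30800 to 33200 in TCL1-AT and 30200 to 31900 in WT. Csf1r, the receptor that monocytes depend on, was detected on all arrays, and Ccr2 on 0 TCL1-AT arrays and 2 WT arrays. Lyz2 and Spi1 were called higher (0.29 and 0.40, adjusted p = 0.0233 and 0.0185) and Adgre1, which encodes F4/80, and Cd68 lower (-0.91 and -0.31, adjusted p = 0.00108 and 0.0393), none of them with the block, and Lyz2 is the brightest gene in the sum. Both other probes of Lyz2 gave log2 differences below 0. Ly6c2 had no probe under that symbol on the array. Of 7 B cell markers on the array, 2 were tested and 1 rose (Cd79b, by 0.60, adjusted p = 0.00566, and 0.44 with adjusted p = 0.346 with the block), and the list summed to 500 to 974 in TCL1-AT and 346 to 415 in WT. Cd79b is the brightest gene in that sum, and the other tested marker, Ms4a1, gave -0.02 (adjusted p = 0.918). Pax5 was detected on 0 TCL1-AT arrays and 1 WT array and Vpreb3 on none, while Ebf1 and Fcmr were each detected on 3 TCL1-AT arrays and 1 WT array, Fcmr reaching a log2 signal of 7.48 on TCL1-AT 3. TCL1-AT 3 had the highest B cell sum, and without it 8 members were called higher, Nfkbiz being lost. Of 5 T cell markers tested 0 rose and 4 fell, beside 12.7% higher and 16.5% lower among all tested named genes. The T cell list summed to 82.4 to 111 in TCL1-AT and 243 to 370 in WT, and Cd8a was not detected on any array.

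Sums of 4 mast cell and basophil markers were 26.2 to 236 in TCL1-AT and 13.6 to 19.4 in WT, those of 3 erythroid markers 639 to 1740 in TCL1-AT and 93.8 to 538 in WT, and those of 4 NK cell markers 1100 to 3280 in TCL1-AT and 554 to 899 in WT. Hba-a1, the brightest erythroid marker, rose by 2.14 (adjusted p = 0.0013), a call lost with the block at 1.82. Klf1 gave 0.20 (adjusted p = 0.406). Of the NK cell markers, Prf1 rose (1.48, adjusted p = 0.000914, and 1.36 with adjusted p = 0.12 with the block), Klrb1c gave 0.04 (adjusted p = 0.838), and Eomes was detected on 0 TCL1-AT arrays and 1 WT array. For 7 dendritic cell markers the sums were 93.0 to 189 in TCL1-AT and 99.2 to 133 in WT. Zbtb46 was higher (1.57, adjusted p = 1.29e-06) and Cd209a lower (-0.91, adjusted p = 0.00252), the latter call lost with the block at -0.95. For 8 neutrophil markers the sums were 18800 to 35500 in TCL1-AT and 21900 to 34500 in WT, with S100a8 the brightest. Of these markers 0 rose and 1 fell, Mmp8, by 0.49 (adjusted p = 0.00621), a call lost with the block at -0.23. Mmp8 was detected on 0 TCL1-AT arrays and 5 WT arrays. Ncr1 and Xcr1 were not detected on any array. Red pulp macrophage markers summed to 509 to 626 in TCL1-AT and 188 to 274 in WT. Spic, the brightest of them, was higher (1.66, adjusted p = 7.43e-07, and 1.45 with the block), and Vcam1 and C1qb were lower. With the block Vcam1 gave -0.13 (adjusted p = 0.827) and C1qb -0.50 (adjusted p = 0.385), and Cd163 was detected on 0 TCL1-AT arrays and 1 WT array. Immediate early and dissociation genes summed to 11100 to 14800 in TCL1-AT and 7630 to 9030 in WT. Of these 13 genes 6 rose and 2 fell, beside 12.7% higher and 16.5% lower among all tested named genes. Jun rose by 2.23 (adjusted p = 9.38e-07). Fos fell by 1.06 (adjusted p = 0.00893), a call lost with the block at -0.68, and Atf3 fell by 1.15 (adjusted p = 1.72e-05). The part of other cells and of handling in the members' differences was not tested.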

How the data were processed

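Splenic monocyte RNA of 5 TCL1-AT and 5 WT samples was measured on Illumina arrays. The deposited non-normalized table holds a linear signal intensity and a detection p-value per probe, per the file headers. The deposited series matrix holds log2 values whose making is not given in the sources used here; they differed by at most 0.000428 from limma's neqc of the intensities (normexp, offset 16, quantile), so the matrix was used. Of 46237 probes, 20241 were tested, those detected (p under 0.05) on 5 or more of the 10 arrays. Symbols came from the platform annotation, updated through a RefSeq table (GRCm38.p6), with 10453 probes unnamed. Groups were compared with limma 3.58.1 (lmFit, eBayes, R 4.3.3), 2-sided, with Benjamini-Hochberg adjustment over all tested probes, a method tested on simulated data. For arrays, their number limits the precision. Replicate numbers did not pair samples. Named genes were all 10 members, up to 3 called genes per direction with the lowest p in each pathway list, and the 3 genes most like the member of largest rise. Marker genes and the uncalled pathway genes Nfkbil1, Ikbkb, Map3k14, Lcn2, Ebi3, Cxcl12 and Ccl19, and Myd88, Ccl4, Tnfaip2 and the undetected targets, were named from their lists outside that rule, after their values were seen. Members and lists were chosen with earlier results of these data known. Alternatives were other values, scalings, detection filters, 1 probe per gene, a variance trend, median raw signal as covariate or as block (split at 90), a replicate block and leaving out each array.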

Additional observations from a re-analysis of the deposited data

Results flagged for a closer look

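In 4 of the 24 groups of 5 arrays examined (12 probes in 2 groups), 1 array lay far from the other 4 of its group, where chance gives about 1 in 20. All 12 probes were read on the same arrays, so these groups are not independent and their number was not tested against that share. TCL1-AT 4 was the lowest leukaemic array for Nfkb1, at 7.97 against 8.99 to 9.36 on the others, for Nfkbiz, at 9.98 against 10.87 to 11.02, and for Rel, at 4.70 against 5.31 to 5.38 (log2 signal). WT 2 was the highest control array for Rela, at 11.06 against 10.85 to 10.90. Without TCL1-AT 4 the log2 difference was 1.01 for Nfkb1, 0.79 for Nfkbiz and 0.28 for Rel, which was still not called, and without WT 2 it was 0.36 for Rela. On the brightest probe of Rela, Relb, Nfkbia, Nfkbib and Bcl3, TCL1-AT 4 was not the lowest leukaemic array, while on the dimmer Nfkbia probe it was, at 7.75. The cause was not tested.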

How the results depend on the processing

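No member changed direction in any alternative, and 0 were called lower in any of them. Raw background as a covariate called 5 member genes and 6 member probes higher, with 1102 probes higher and 1340 lower over the whole array, and as a block 5 and 6, with 649 higher and 681 lower. Without either term, 2458 probes were called higher and 3005 lower. Leaving out each array in turn gave 7 to 9 member genes and 9 to 11 member probes called higher, and 1949 to 2701 probes higher and 2423 to 3054 lower. Nfkb2, Relb, Nfkbia, Nfkbie and Bcl3 were called in every setting run. With no detection filter Nfkb1 and Nfkbiz were not called (adjusted p = 0.0674 and 0.135), where 46237 probes were tested. Correlations of deviations between arrays of the same replicate number were -0.183 to 0.185, so the numbers were not taken as pairs; with the replicate block 7 member genes were called higher, beside 10.1% of probes, and Rela (0.32, adjusted p = 0.0593) and Nfkbiz (0.59, adjusted p = 0.0658) were not, at unchanged differences. Values recomputed by neqc and values without background correction called 9 member genes. On the brightest probe of each gene, ratios of Nfkbia and of Relb to Rela passed in all settings run for them, and that of Nfkb2 to Nfkb1 in none, at 0.28 to 0.57 with arrays left out and 0.26 without background correction. The offset added before the log compresses differences of dim probes.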

Other observations

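Before background correction and normalization, the ratio of the median raw signal of TCL1-AT arrays to that of WT arrays was 2.66 for the brighter Nfkbia probe, 2.53 for the brighter Nfkbie probe, 2.27 for Bcl3, 2.22 for Relb and 1.85 for Nfkb2. The raw signals of Nfkbia were 3810 to 4520 intensity units in TCL1-AT and 1470 to 2010 in WT, and those of Bcl3 were 524 to 631 in TCL1-AT and 166 to 330 in WT. Raw signals of these 5 probes did not overlap between the groups. For Rela the raw ranges did overlap, at 2200 to 2600 in TCL1-AT and 1680 to 2600 in WT. Of all 20241 tested probes, 0.790% had a log2 difference as high as that of Bcl3 or higher, 0.889% as high as that of Relb and 33.5% as high as that of Rel.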
